A study of Mus musculus with 12 samples.

Results

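The mouse mitochondrial genome is listed in the deposited table with 37 genes, those whose gene name starts with mt-, out of 78298 genes in all. They comprise 13 mRNAs, 2 rRNAs and 22 tRNAs, they are all the genes of the table on chromosome MT, and they were followed in all 12 libraries. Poly(A) RNA of the hippocampus was sequenced from male C57BL/6 mice, bought at 6 to 8 weeks of age, with 4 libraries in each of 3 groups. Treatment mice went through chronic unpredictable mild stress (CUMS), a rotating programme of mild stressors used as a rodent model of depression, for 28 days and received 20 mg/kg poricoic acid A, a triterpenoid found in the medicinal fungus Poria cocos, by gavage for 14 days from day 15. Model mice went through the same 28 days of CUMS with saline gavage, and Control mice received saline without CUMS. The labels give 4 mice per group for sequencing but do not say that each library is 1 mouse, so p-values measure the spread between these libraries, which may in part be technical.

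Mitochondrial DNA is a small circular genome that each cell carries in many copies. Both of its strands are transcribed into long precursors, and the tRNAs that lie between the other genes are cut out of them, which releases the mRNAs and rRNAs. The 13 mRNAs encode core subunits of the respiratory complexes I, III and IV and of the ATP synthase (complex V), which make most of the ATP that neurons use, and the rRNAs and tRNAs serve the organelle's own ribosomes. The remaining subunits and all proteins that copy, transcribe, process and translate this genome are encoded in the nucleus.

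Sequence decides how well these RNAs can be counted. In the GENCODE vM21 transcripts of the earlier build GRCm38, 7 of the 13 mRNAs have a nuclear copy of at least 99% identity over at least 200 bases, and all 7 copies lie in 1 block of 4663 bases on chromosome 1 (chr1:24650616-24655278 in GRCm39, the build of the table). The mitochondrial genes mt-Atp6, mt-Co2, mt-Co3 and mt-Nd4l match Atp6-ps, Gm28661, Gm28437 and Gm10222 at 100% over 678, 681, 783 and 294 bases, and mt-Nd4 matches Gm28439 at 100% over 876 of its 1378 bases. The copy Gm28438 aligns with 345 of the 348 bases of mt-Nd3, and Gm29216 with only 483 of the 1545 bases of mt-Co1. Within these aligned parts each pair differs at 1 base, T3C and A1066T. Positions count from the first base of the mitochondrial transcript, with the mitochondrial base first. The first stretches below show, in capitals, the base that differs within each aligned part. The remaining 6 mRNAs, mt-Nd1, mt-Nd2, mt-Nd5, mt-Nd6, mt-Cytb and mt-Atp8, had no copy of this kind among these annotated transcripts; the genome itself was not searched. On chromosome 1 the stretch between Atp6-ps and Gm28661 is 233 bases long, the same as the mitochondrial stretch between the matched parts of mt-Co2 and mt-Atp6, which holds 161 of the 204 bases of mt-Atp8. Whether the block also carries a copy of mt-Atp8 was not tested.
mt-Nd3: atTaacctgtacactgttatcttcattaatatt
Gm28438: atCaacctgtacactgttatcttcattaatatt
mt-Co1: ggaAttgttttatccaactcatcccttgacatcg
Gm29216: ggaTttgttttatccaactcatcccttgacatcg

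Mitochondrial genes also overlap each other. The 2 shortest mRNA genes that share bases with a neighbour are shown whole, with the bases shared with mt-Atp6 (43 bases) and mt-Nd4 (7 bases) in capitals. The gene mt-Atp8 lies at chrMT:7766-7969 and mt-Nd4l at chrMT:9877-10173, both on the plus strand, and the table gives the same start and end as the GRCm38 annotation for all 37 genes. At the other end of the genome mt-Nd5 (chrMT:11742-13565, plus strand) and mt-Nd6 (chrMT:13552-14070, minus strand) share 14 bases. The labels describe no step that keeps the strand of the RNA, and whether it was kept is not known. Without it, reads from these 14 bases cannot be assigned to 1 of the 2 genes by strand. Any plus-strand RNA elsewhere across mt-Nd6 could then be counted with that gene too.
mt-Atp8: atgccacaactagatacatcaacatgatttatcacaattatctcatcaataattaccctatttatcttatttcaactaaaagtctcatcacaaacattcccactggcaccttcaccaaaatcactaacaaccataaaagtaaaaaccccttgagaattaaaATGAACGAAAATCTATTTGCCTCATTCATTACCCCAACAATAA
mt-Nd4l: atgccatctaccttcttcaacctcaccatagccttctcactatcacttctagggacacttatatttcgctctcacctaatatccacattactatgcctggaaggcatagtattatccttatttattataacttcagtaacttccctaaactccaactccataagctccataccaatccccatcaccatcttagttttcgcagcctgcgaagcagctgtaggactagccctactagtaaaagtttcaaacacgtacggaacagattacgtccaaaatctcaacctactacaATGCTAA

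The 12 libraries held between 17083260 and 27479083 estimated counts, all of 1 labelled batch. The library names of Treatment replicates 2 and 3 are 1631 and 1636, and those of all other libraries lie between 1868 and 1898. These 2 replicates were therefore also left out together in an alternative fit. Whether the names mark a difference in handling was not tested. Of the 18600 genes that passed the filter on low counts and were tested in edgeR, 15 were mitochondrial: all 13 mRNAs and both rRNAs. No tRNA passed. Levels are given as CPM, the count relative to the library total after TMM scaling, and levels of different genes are compared only as the deposited FPKM, which divides by an effective gene length (the length less that taken up by the fragments), or as CPM per kb of the full gene. Differences are log2 fold changes ± SE from edgeR's quasi-likelihood test with n = 4 libraries per group, called where the p-value, adjusted by Benjamini-Hochberg across the 18600 genes, was under 0.05.

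The 13 mitochondrial mRNAs took 7.13%, 6.88%, 7.29% and 7.78% of the counts in the Treatment libraries, 6.71%, 6.85%, 6.52% and 6.55% in the Model libraries, and 7.70%, 7.46%, 7.24% and 7.67% in the Control libraries. Every Model library lay below every library of both other groups, while Treatment and Control overlapped. The mean share was 6.66% ± 0.154 in Model and 7.52% ± 0.215 in Control (SD, n = 4 each), a difference of -11.5% of the Control value. Treatment averaged 7.27% ± 0.381 against 6.66% ± 0.154 in Model (SD, n = 4 each), a difference of 9.18% of the Model value. Against Control the Treatment mean differed by -3.33%. As a share of summed FPKM the mRNAs took 16.8% to 18.6% in Treatment, 15.9% to 17.0% in Model and 17.2% to 17.9% in Control libraries, so Treatment and Model overlapped there. These shares are a sum over the members and were not tested. With bulk tissue, fewer cells of a type that is rich in mitochondria and less mitochondrial RNA per cell cannot be told apart.

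The 2 rRNAs did not follow the mRNAs. They took 0.593% to 0.692% of the counts in Treatment, 0.627% to 0.714% in Model and 0.559% to 0.678% in Control libraries, and all 3 ranges overlapped. The count of the rRNAs divided by that of the mRNAs was 0.0863 to 0.0947 in Treatment, 0.0962 to 0.109 in Model and 0.0749 to 0.0880 in Control libraries. This ratio was higher in every Model library than in any library of the other groups, by 22.7% of the Control mean and with Treatment at -10.5% of the Model mean. Oligo(dT) beads select RNA by its poly(A) tail, and mitochondrial rRNAs carry short tails, so the ratio describes the RNA that was captured and not the amounts in the cell.

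**Figure D1:**
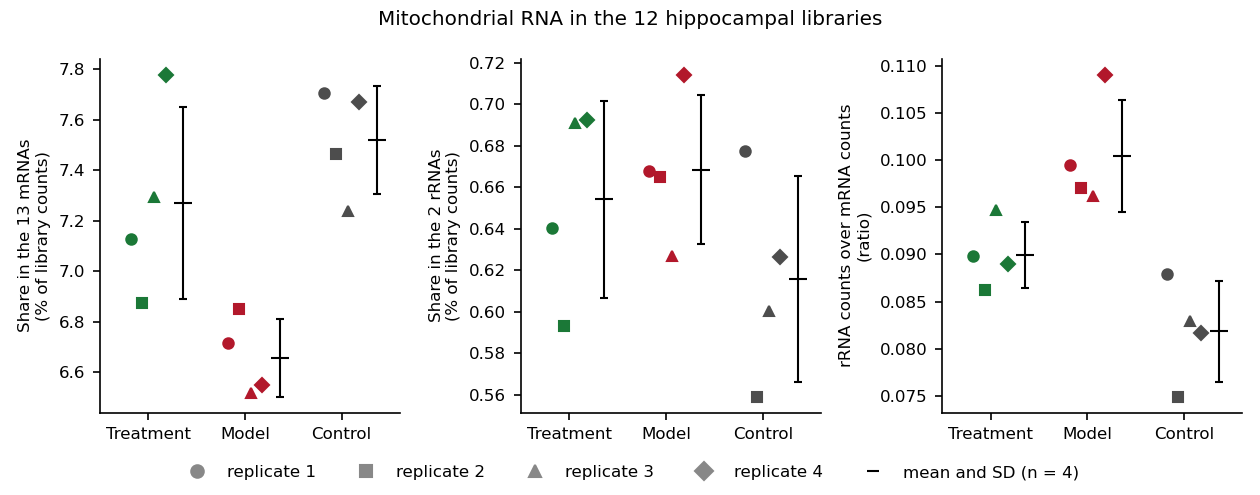
Share of library counts in the 13 mitochondrial mRNAs (left), in the 2 rRNAs (middle) and the ratio of rRNA to mRNA counts (right) in the Treatment, Model and Control libraries, with replicates as symbols and mean ± SD (n = 4) in black; axes do not start at 0. The 4 Model libraries have mRNA shares of 6.52% to 6.85%, below all libraries of the other groups, and the highest ratios, 0.0962 to 0.109.

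Complex I, the NADH dehydrogenase that feeds electrons into the chain, has 7 subunits in the mitochondrial genome. The gene mt-Nd5 encodes a proton-pumping subunit at the far end of its membrane arm. It had 7042, 6701, 6156 and 6952 CPM in Treatment libraries, 5927, 5693, 5676 and 5338 CPM in Model libraries, and 7051, 7004, 6847 and 6968 CPM in Control libraries. All 4 Model libraries were below all 8 others, and the Control libraries differed little among themselves (SD 87.4 CPM around a mean of 6967.5 CPM). In Model against Control mt-Nd5 fell, with a log2 fold change of -0.30 ± 0.05 (edgeR, adjusted p = 0.0183). It was the only one of the 13 mRNAs called lower, where 0.452% of all genes tested were called lower, and none of the 13 was called higher, against 0.339% of all genes. In Treatment against Model mt-Nd5 rose by 0.25 ± 0.05 (edgeR, adjusted p = 0.0283), again as the only one of the 13 mRNAs, where 1.18% of all genes tested were called higher, and none was called lower, against 0.704%. Both comparisons use the same Model libraries. In Treatment against Control the difference was -0.05 ± 0.05 (edgeR, adjusted p = 0.698).

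The direction of both mt-Nd5 differences was the same in all 28 alternative fits, from -0.35 to -0.27 in Model against Control and from 0.22 to 0.31 in Treatment against Model. The call held in 19 of them in Model against Control and in 18 in Treatment against Model, with adjusted p from 9.9e-06 to 0.301 and from 0.000312 to 0.273 over edgeR, DESeq2 and limma. The first call was lost without Control replicate 1 (adjusted p = 0.0714), Control replicate 2 (0.06635), Model replicate 2 (0.0638), Model replicate 3 (0.0631) or Model replicate 4 (0.0765). The second was lost without Model replicate 2 (adjusted p = 0.114), Model replicate 3 (0.0849), Model replicate 4 (0.0677), Treatment replicate 2 (0.0704) or Treatment replicate 4 (0.0709), all in edgeR. Neither was called in the deposited FPKM with limma (adjusted p = 0.0751 to 0.301 in Model against Control and 0.0503 to 0.273 in Treatment against Model), and the second was also lost in the 8 libraries compared (0.0728) and with no filter on low counts (0.0757) in edgeR. The genes that passed over the whole table are as sensitive: 147 in Model against Control and 350 in Treatment against Model with all libraries, but 13 and 0 without Model replicate 3.

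The neighbour of mt-Nd5 on the other strand, mt-Nd6, encodes a further membrane subunit and is the only mRNA gene of this genome on the minus strand. It had 1154, 982, 1117 and 1382 CPM in Treatment libraries, 1112, 1077, 941 and 959 CPM in Model libraries, and 1255, 1226, 1265 and 1352 CPM in Control libraries. Model and Control did not overlap. Its difference of -0.32 ± 0.09 was as large as that of mt-Nd5 but was not called (edgeR, adjusted p = 0.0889), and Treatment differed from Model by 0.18 ± 0.09 (edgeR, adjusted p = 0.275). In human cells the ND6 mRNA is known for lacking a long poly(A) tail, so its capture on oligo(dT) beads may differ from that of the other mRNAs. Whether plus-strand RNA across mt-Nd6 adds to its counts was not tested.

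The antiporter-like subunits mt-Nd2 and mt-Nd4 form the middle of the membrane arm. The gene mt-Nd2 had 5123, 4720.1, 5427 and 5552 CPM in Treatment, 4525, 4659, 4759 and 5112 CPM in Model, and 4697, 4755, 4765 and 4799 CPM in Control libraries. Model lay around Control, at 0.00 ± 0.06, and Treatment differed from Model by 0.13 ± 0.06 (edgeR, adjusted p = 0.232). The gene mt-Nd4 had 9670.2, 9379, 10733 and 10482 CPM in Treatment, 8159, 8729, 8866 and 9386 CPM in Model, and 9196, 9193, 8835 and 9599 CPM in Control libraries. Treatment and Model overlapped by 1 library each, at 0.20 ± 0.06 (edgeR, adjusted p = 0.0808), and Model differed from Control by -0.07 ± 0.06 (edgeR, adjusted p = 0.616). For both genes the Treatment mean was above the Control mean, by 0.13 ± 0.06 each (edgeR, adjusted p = 0.314 for mt-Nd2 and 0.323 for mt-Nd4).

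The gene mt-Nd1, whose product lines the quinone-binding site, had 5311, 5282, 5646 and 6524 CPM in Treatment, 5284, 5475, 5107 and 5012 CPM in Model, and 6027, 5638, 5524 and 6104 CPM in Control libraries. Model was below Control without overlap, at -0.16 ± 0.07 (edgeR, adjusted p = 0.254). The small subunits mt-Nd3 and mt-Nd4l gave no stable value. The gene mt-Nd3 ranged from 57.4 to 101 CPM in Treatment, 80.0 to 132 CPM in Model and 64.8 to 111 CPM in Control libraries, and mt-Nd4l from 241 to 354 CPM in Treatment, 210 to 337 CPM in Model and 287 to 341 CPM in Control libraries. Their differences had SE of 0.14 to 0.19 log2 units, and none was called.

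Complex III has 1 mitochondrially encoded subunit, cytochrome b, which carries its hemes between the quinone sites. Its gene mt-Cytb had 8711, 8486, 9187 and 10341 CPM in Treatment, 8647, 8973, 8300.1 and 8241 CPM in Model, and 9402, 9574, 9219 and 9908 CPM in Control libraries. Every Model library was below every Control library, at -0.16 ± 0.06 (edgeR, adjusted p = 0.209). Treatment overlapped both groups and differed from Model by 0.10 ± 0.06 (edgeR, adjusted p = 0.368).

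Complex IV, the cytochrome c oxidase that passes electrons to oxygen, takes its 3 catalytic core subunits from this genome. The gene mt-Co1 encodes the subunit with the oxygen-binding site. It had 26368, 24859, 25852 and 28020.2 CPM in Treatment, 24486, 24791, 24760.2 and 23376 CPM in Model, and 27719, 27099.5, 26640.3 and 28370.3 CPM in Control libraries. The Model libraries were below all others. The difference was -0.17 ± 0.05 in Model against Control (edgeR, adjusted p = 0.0836) and 0.11 ± 0.05 in Treatment against Model (edgeR, adjusted p = 0.214), and neither was called.

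The gene mt-Co2, for the subunit that takes electrons from cytochrome c, had 1834 to 2185 CPM in Treatment, 1848 to 2168 CPM in Model and 2039.7 to 2356 CPM in Control libraries, and all 3 groups overlapped. It differed by -0.16 ± 0.07 in Model against Control and by -0.04 ± 0.07 in Treatment against Model, neither called. The gene mt-Co3, for the third core subunit, had 3613 to 4632 CPM in Treatment, 4024 to 4365 CPM in Model and 4477 to 4887 CPM in Control libraries. Model was below Control without overlap, at -0.14 ± 0.07 (edgeR, adjusted p = 0.332), and Treatment lay around Model at -0.01 ± 0.07.

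Complex V makes ATP from the proton gradient. The gene mt-Atp6, for the subunit that forms its proton channel, had 1544 to 2320 CPM in Treatment, 1554 to 2162 CPM in Model and 1597 to 2232 CPM in Control libraries, with nearly the same range in each group. The gene mt-Atp8, for a small membrane subunit, had 379, 304, 257 and 701 CPM in Treatment, 553, 492, 285 and 239 CPM in Model, and 471, 388, 428 and 446 CPM in Control libraries. Its Treatment and Model libraries thus lay both above and below Control, and the differences had SE of 0.28 log2 units.

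**Figure D2:**
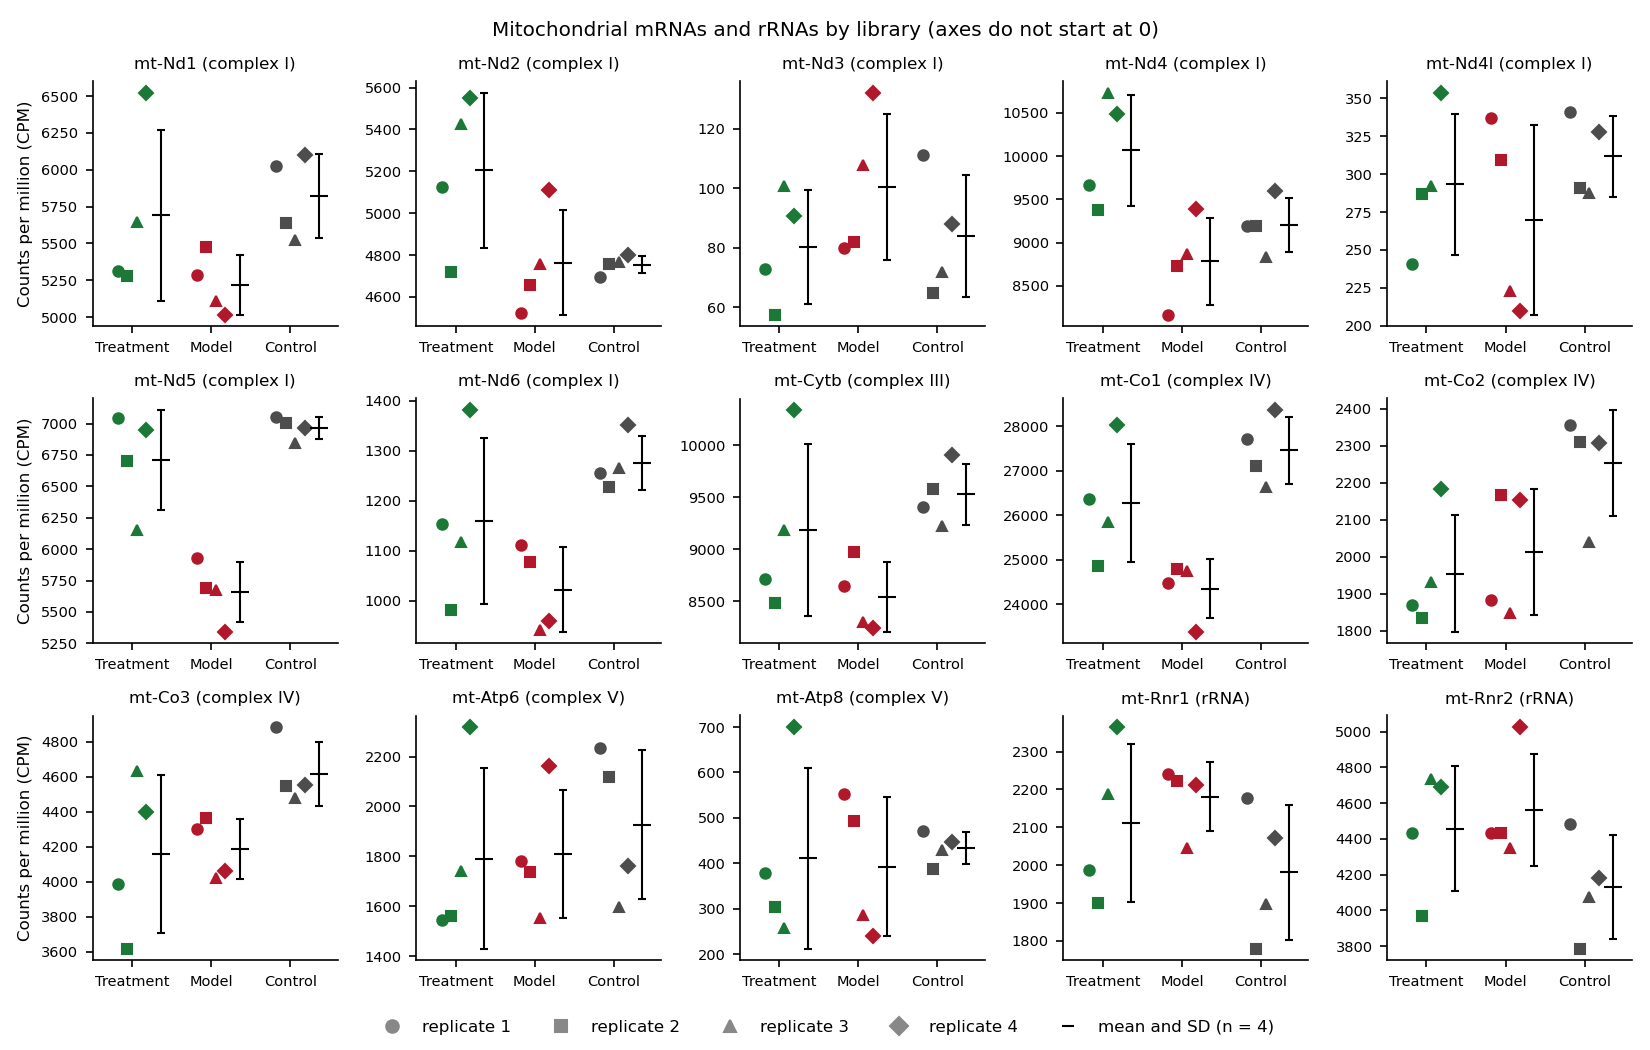
CPM of the 13 mitochondrial mRNAs and 2 rRNAs in the Treatment, Model and Control libraries, 1 panel per gene with its respiratory complex, replicates as symbols and mean ± SD (n = 4) in black; axes do not start at 0. For mt-Nd5 the Model libraries (5338 to 5927 CPM) sit below all others, whereas for mt-Atp8 the Treatment libraries spread from 257 to 701 CPM.

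Set together, 11 of the 13 mRNAs had a negative difference in Model against Control and 2 a positive one (mt-Nd2 and mt-Nd3), with a median of -0.16 beside -0.01 over all genes tested. Besides mt-Nd5, 5 more mRNAs had an unadjusted p under 0.05, which 15.6% of all genes tested had. For 6 of the 13 (mt-Nd1, mt-Nd5, mt-Nd6, mt-Cytb, mt-Co1 and mt-Co3) every Model library was below every Control library, a pattern that 5.46% of all genes tested showed, and for none was every Model library above every Control library, against 5.95% of all genes. In Treatment against Model 4 mRNAs (mt-Nd2, mt-Nd4, mt-Nd5 and mt-Co1) had an unadjusted p under 0.05, against 18.5% of all genes tested. There 9 of the 13 were positive, with a median of 0.11 beside 0.00 over all genes tested, and 2 (mt-Nd5 and mt-Co1) were higher without overlap, against 5.14% of all genes tested; 0 were lower without overlap, against 4.36% (9.5% in either direction). In Treatment against Control 0 of 13 mRNAs were called in edgeR, where 0.102% of all genes tested were called, 0.0645% higher and 0.0376% lower. There 4 mRNAs had an unadjusted p under 0.05 against 13.9% of all genes, DESeq2 and limma-voom also called 0, and the median was -0.06 beside -0.01 over all genes. No mRNA was free of overlap there, against 7.24% of all genes (3.99% higher and 3.24% lower). The mRNAs are cut from shared precursors and are not independent of each other.

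**Figure D3:**
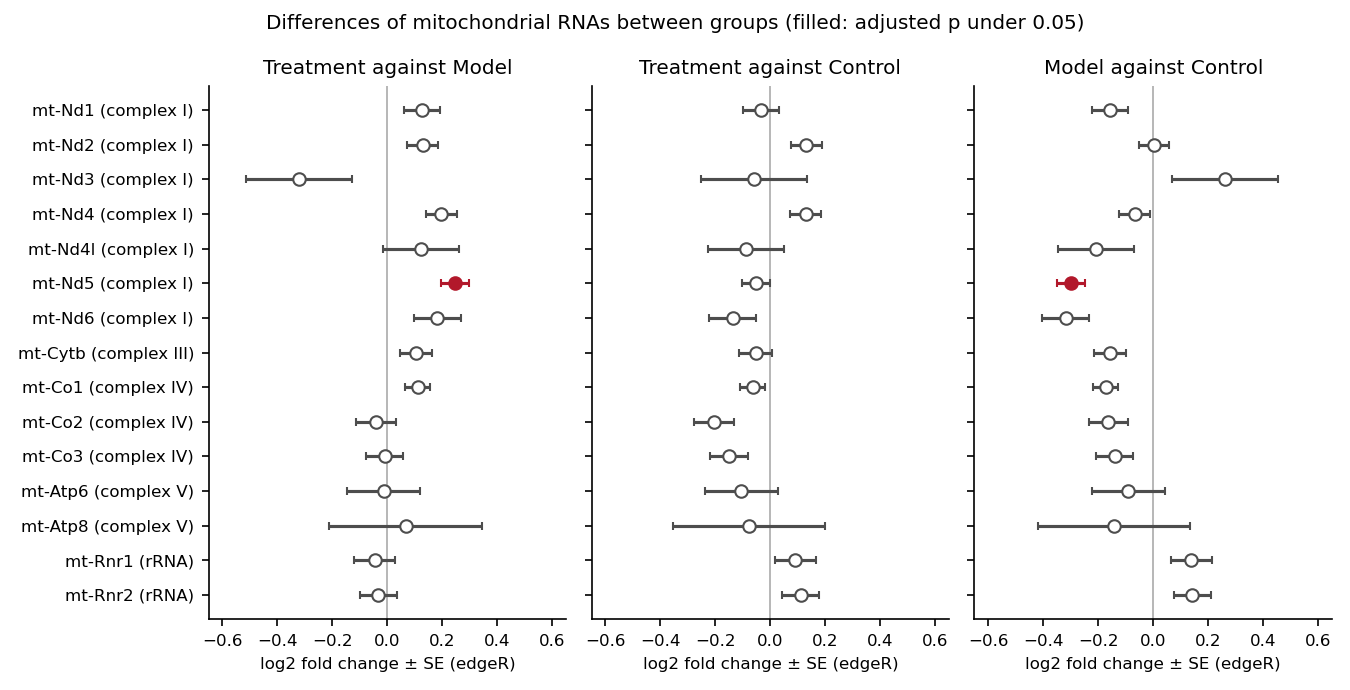
Log2 fold changes ± SE from edgeR for the 13 mRNAs and 2 rRNAs in Treatment against Model, Treatment against Control and Model against Control (4 libraries per group); filled points have an adjusted p under 0.05. Only mt-Nd5 is filled, at 0.25 in Treatment against Model and at -0.30 in Model against Control, and most mRNAs lie left of 0 in Model against Control while both rRNAs lie right of it.

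Shares within the mRNA counts were compared only by whether the groups overlapped. Whether the mRNAs changed by different proportions was not tested. The shares add up to a fixed whole, so a move in any of them shifts the rest. In CPM, 11.4% of all genes tested did not overlap in Model against Control. This held for 9.5% in Treatment against Model and 7.24% in Treatment against Control. Among the counts of the 13 mRNAs, mt-Nd5 made up 8.04% to 8.84% in Model and 9.10% to 9.51% in Control libraries, without overlap, and 8.42% to 9.85% in Treatment. The share of mt-Nd2 was 6.75% to 7.70% in Model and 6.20% to 6.62% in Control libraries, also without overlap and in the opposite direction. For mt-Nd4 it was 13.2% to 14.7% in Treatment and 12.1% to 12.5% in Control. For mt-Co2 it was 2.62% to 2.75% in Treatment, below all Model (2.78% to 3.24%) and Control libraries (2.83% to 3.11%). The share of mt-Nd2 in Treatment, 6.93% to 7.43%, was also above that in all Control libraries. The other pairings of groups overlapped for these genes, and for the other 9 mRNAs all did. The mt-Co2 share counts only reads given to the mitochondrial gene. Its copy Gm28661 held 71.8% to 74.7% of the pair in Treatment, 68.7% to 73.2% in Model and 67.4% to 71.2% in Control libraries. In Treatment against Control mt-Co2 differed by -0.21 ± 0.07 alone and by -0.02 ± 0.07 when summed with this copy.

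Per effective length the mRNAs differed by far more than the groups did. By deposited FPKM averaged over the 12 libraries, mt-Co1 was highest at 20337 (18379 to 22001), and its range overlapped with that of no other member. It was followed by mt-Atp8 at 11886 FPKM, mt-Cytb at 10339, mt-Nd4 at 8412, mt-Co3 at 8346 and mt-Nd1 at 8070.2 FPKM, a run of neighbours whose ranges overlap. Then came mt-Nd2 at 6362 FPKM, whose range was separate from those of its neighbours in the order. The next 5 overlapped again: mt-Co2 at 4966, mt-Nd6 at 4556, mt-Atp6 at 4443, mt-Nd4l at 4322 and mt-Nd5 at 4136 FPKM. The rRNAs mt-Rnr2 at 3328 and mt-Rnr1 at 3034 FPKM followed, and mt-Nd3 was lowest at 908 FPKM (650.0 to 1537). The order depends on the length used for the short genes: the effective length of mt-Atp8 was 32.0 to 41.4 of 204 bases and that of mt-Nd4l 59.9 to 78.5 of 297 bases. Per kb of the full gene mt-Atp8 stood at 2019.8 CPM, below mt-Cytb (7939 CPM), mt-Nd5 (3534 CPM), mt-Rnr2 (2770.4 CPM) and mt-Rnr1 (2189 CPM), while mt-Co1 was again highest (16847 CPM) and mt-Nd3 lowest (254 CPM). For the 7 mRNAs with a near-identical nuclear copy the level counts only the reads given to the mitochondrial gene. Across libraries the coefficient of variation of the FPKM was 30.3% for mt-Atp8 and 30.6% for mt-Nd3, and 5.92% to 14.6% for the other 11 mRNAs.

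The ribosomal RNAs showed no called difference. The gene mt-Rnr1, for the rRNA of the small subunit, had 1988, 1901, 2187 and 2366 CPM in Treatment, 2241, 2223, 2045 and 2212 CPM in Model, and 2176, 1778, 1898 and 2073 CPM in Control libraries. The gene mt-Rnr2, for the rRNA of the large subunit, had 4435, 3969.8, 4734 and 4692 CPM in Treatment, 4432, 4434, 4346 and 5028 CPM in Model, and 4486, 3782, 4073 and 4181 CPM in Control libraries. Model and Control overlapped in both genes, as did the other pairs of groups. The differences were 0.14 ± 0.07 for each in Model against Control (edgeR, adjusted p = 0.393 and 0.331) and -0.05 ± 0.07 for mt-Rnr1 and -0.03 ± 0.07 for mt-Rnr2 in Treatment against Model. In all 3 comparisons 0 of 2 passed in edgeR, DESeq2 and limma-voom, and 0 had an unadjusted p under 0.05 in edgeR. Per length mt-Rnr2 stood at 1.05 to 1.16 times mt-Rnr1 in Treatment, 1.05 to 1.17 times in Model and 1.07 to 1.13 times in Control libraries.

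The tRNAs were nearly absent from the counts. Of the 22, which are 59 to 75 bases long, 15 were at 0 in all libraries, and the other 7 had 18 counts in all, 12 of them in Treatment, 1 in Model and 5 in Control libraries. The tRNA for methionine, mt-Tm, had the most, with 1, 2, 2 and 4 counts in Treatment libraries, 0, 0, 0 and 1 in Model libraries and 0 in each Control library. The next was mt-Ts1 with 3 counts, and mt-Tv, mt-Tl1, mt-Tn, mt-Th and mt-Tp had 1 each. A count of 0 allows up to 3 counts, a share of 1.1e-05% of the deepest and 1.8e-05% of the shallowest library. This limit covers counting error only and describes captured fragments, since RNAs of this length without a tail are lost in such a library. No tRNA was tested. For mt-Tm the sums were 9 counts in Treatment, 1 in Model and 0 in Control libraries, at 4 counts or fewer in each library. Treatment and Control did not overlap, a pattern that 7.24% of all genes tested showed (3.99% higher). That share is for CPM of genes that passed the filter, whereas mt-Tm did not pass and is compared in raw counts. Since mt-Tm is 1 of 22 tRNAs and lies near the floor, no difference is read from it.

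The split of counts between a mitochondrial gene and its nuclear copy differed widely between pairs with the same 100% identity. The copy held 64.2% to 74.8% of the summed counts for Atp6-ps with mt-Atp6, 67.4% to 74.7% for Gm28661 with mt-Co2, and 39.2% to 43.6% for Gm28437 with mt-Co3. It held 29.96% to 67.2% for Gm10222 with mt-Nd4l and 34.2% to 67.5% for Gm28438 with mt-Nd3. For Gm28439 with mt-Nd4 the share was 0.636% to 6.02% and for Gm29216 with mt-Co1 0.128% to 1.57%, although the genes' own sequences beyond the copied part add to the mitochondrial side there. Where both sequences are identical the assignment rests on neighbouring bases or on the counting program's estimate, and which of the 2 loci was transcribed was not tested.

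**Figure D4:**
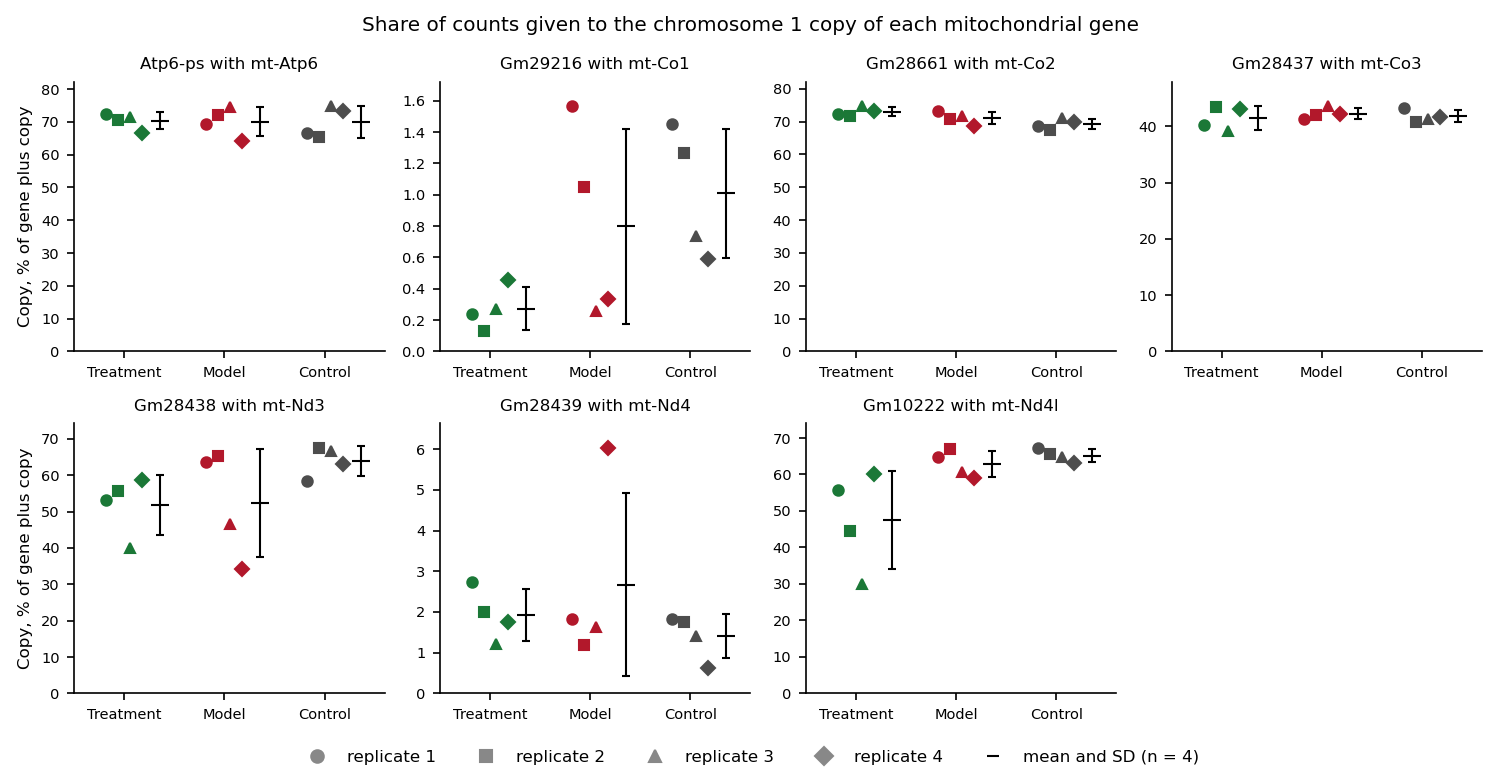
Counts of each chromosome 1 copy as a percent of the copy plus its mitochondrial gene (y axis from 0) in the Treatment, Model and Control libraries, with replicates as symbols and mean ± SD (n = 4) in black. The copy takes 64.2% to 74.8% for Atp6-ps but 0.636% to 6.02% for Gm28439, and the split of Gm10222 with mt-Nd4l reaches down to 29.96% in a Treatment library.

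The 7 copies together held 1.18% to 1.47% of library counts in Treatment, 1.24% to 1.40% in Model and 1.32% to 1.505% in Control libraries, which is 14.7% to 17.0% of the sum of mRNAs and copies. With them added, the share was 7.97% ± 0.227 in Model and 8.93% ± 0.268 in Control (SD, n = 4 each), still without overlap and at -10.7%. Treatment stood at 8.57% ± 0.506 against 7.97% ± 0.227 in Model (SD, n = 4 each), at 7.52%, but here the 2 groups overlapped. Summing each gene with its copy before the fit was an alternative chosen after seeing the data. The counts of mt-Nd5, which has no such copy, were unchanged by this, so its calls could move only through scaling and the other genes. It stayed called in Model against Control at -0.30 ± 0.05 (edgeR, adjusted p = 0.0205) and in Treatment against Model at 0.24 ± 0.05 (edgeR, adjusted p = 0.0298). No copy was called in any of the 3 comparisons in edgeR. The sign of mt-Nd3 in Model against Control changed, from 0.26 ± 0.19 alone to -0.10 ± 0.12 with Gm28438, and that of mt-Nd4l in Treatment against Model from 0.12 ± 0.14 alone to -0.33 ± 0.21 with Gm10222.

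Library fragment length moved with the counts of mt-Atp8 and with the sum of mt-Nd4l and its copy. The deposited FPKM use an effective gene length, and the gene length minus this value gives an implied mean fragment length of 280, 294, 301 and 253 bases in Treatment, 242, 247, 280 and 290 bases in Model, and 248, 259, 255 and 254 bases in Control libraries. The 204 bases of mt-Atp8 are shorter than all of these. Its highest level, 701 CPM, and the 553 and 492 CPM next to it were in Treatment replicate 4 and Model replicates 1 and 2, which are among the 7 libraries of 242 to 259 bases, and its 5 lowest values, 239 to 379 CPM, were in the 5 libraries of 280 to 301 bases. The same 5 libraries had the lowest sums of mt-Nd4l and Gm10222, 417 to 570 CPM, against 816 to 1043 CPM in the other 7. For mt-Nd4l alone the ranges overlapped, at 210 to 292 CPM in the 5 and 287 to 354 CPM in the 7. The short mt-Nd3 alone showed no such split, with 57.4 to 132 CPM in the 5 and 64.8 to 111 CPM in the 7 libraries. Its highest value alone was in a library of long fragments, Model replicate 4. Summed with its copy Gm28438, mt-Nd3 had 129 to 202 CPM in the 5 and 199 to 267 CPM in the 7 libraries. Of the 7, only Control replicate 2, at 199 CPM, lay within the range of the 5. The long mRNA mt-Nd5 also overlapped, with 5338 to 7042 CPM in the 5 libraries and 5693 to 7051 CPM in the other 7.

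**Figure D5:**
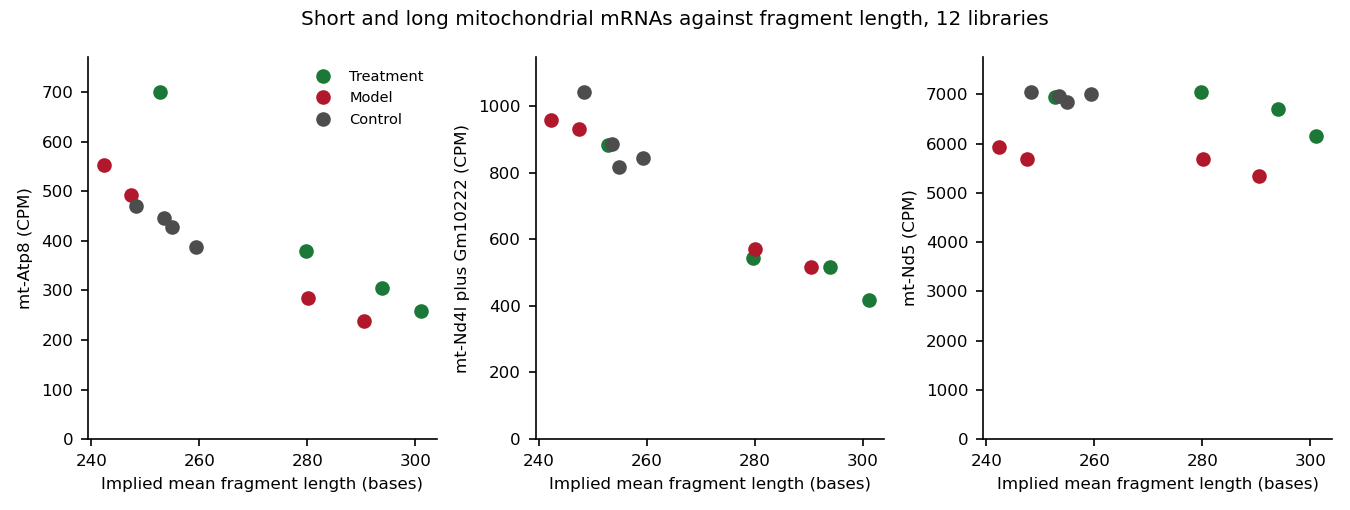
CPM of mt-Atp8 (left), mt-Nd4l plus its copy Gm10222 (middle) and mt-Nd5 (right) against the mean fragment length implied by the deposited FPKM, 1 point per library coloured by group, y axes from 0. The 5 libraries of 280 to 301 bases have the lowest values of mt-Atp8 and of the mt-Nd4l sum, while for mt-Nd5 the 4 Model libraries are the lowest, at short and at long fragments.

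With the implied fragment length as a covariate, also chosen after seeing the data, mt-Atp8 was called higher in Treatment against Model, at 0.49 ± 0.06 (edgeR, adjusted p = 0.00482), and in Treatment against Control, at 0.57 ± 0.06 (edgeR, adjusted p = 0.00476). Without the covariate the values were 0.07 ± 0.28 and -0.08 ± 0.28 (edgeR, adjusted p = 0.935 and 0.941), and no other of the 28 alternatives called it. Since the covariate was picked from the same values, these calls are a description of this fit. Fragment length is also partly confounded with group. The Control libraries were at 248 to 259 bases, and of the Treatment libraries only replicate 4, at 253 bases, lay in that range. The mt-Nd5 calls held with it, at -0.27 ± 0.05 in Model against Control (edgeR, adjusted p = 0.0299) and 0.29 ± 0.05 in Treatment against Model (edgeR, adjusted p = 0.0244).

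Nuclear genes that make, process and use mitochondrial RNA were counted from 6 lists with 101 genes tested. In Model against Control 0 passed in edgeR, where 0.79% of all genes tested passed. Of the 101, 7 had an unadjusted p under 0.05, which 15.6% of all genes tested had. There limma-voom called 0 and DESeq2 called 1 (Gabpa), against 88 and 658 of all 18600 genes. In Treatment against Model 20 of the 101 had an unadjusted p under 0.05, against 18.5% of all genes, and 1 passed, against 1.88%. It was Fastkd2, a mitochondrial RNA-binding protein needed for assembly of the large ribosomal subunit, with 16.6, 15.7, 15.2 and 17.6 CPM in Treatment and 20.9, 23.1, 19.1 and 20.7 CPM in Model libraries. All Treatment libraries were below all Model libraries, as for 4.36% of all genes tested, at -0.36 ± 0.08 (edgeR, adjusted p = 0.0366). This edgeR call was lost without any 1 of 9 single libraries, with adjusted p up to 0.129, and without Treatment replicates 2 and 3 together (0.199). It was also lost in the 8 libraries compared (0.0660), with fragment length as a covariate (0.0817) and in FPKM with limma (0.1202 to 0.266). DESeq2 also called Fastk and Tefm in Treatment against Model, and limma-voom Tefm, where they called 1088 and 318 of all 18600 genes. In Treatment against Control 0 passed in edgeR, against 0.102% of all genes. Here 18 had an unadjusted p under 0.05, against 13.9% of all genes. In this comparison limma-voom called 0 and DESeq2 called 3 (Atp5f1e, Cox6c and Tufm), against 9 and 430 of all 18600 genes.

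Within these lists, the 17 genes of mitochondrial DNA copying and transcription had a median difference of 0.03 in Model against Control and -0.05 in Treatment against Model. Among them Tfam, which packs the DNA and starts transcription, differed by 0.03 ± 0.07 and -0.05 ± 0.07, and Polrmt, the RNA polymerase of the organelle, by -0.07 ± 0.08 and 0.25 ± 0.08 (edgeR, adjusted p = 0.731 and 0.0970). The 33 genes of RNA processing, stability and decay had medians of 0.05 and -0.07. Among these Lrpprc, whose complex with Slirp stabilises the mRNAs, differed by -0.01 ± 0.05 and -0.14 ± 0.05, and Slirp by -0.08 ± 0.17 and -0.23 ± 0.17. The 13 translation factors had medians of 0.01 and -0.01, and the 12 genes of mitochondrial biogenesis of 0.01 and -0.05. In the last list Ppargc1a, a coactivator that drives biogenesis, differed by 0.01 ± 0.08 and 0.09 ± 0.08. Nuclear partner subunits had medians of -0.01 and -0.01 (7 core subunits of complex I) and of -0.05 and -0.06 (19 of complexes III, IV and V). The medians over all genes tested were -0.01 and 0.00.

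Some lists of cell type markers differed between the groups. The sums of the choroid plexus, oligodendrocyte, astrocyte and erythrocyte lists overlapped between all groups. The calls below stand beside 0.79% of all genes tested called in Model against Control and 1.88% in Treatment against Model. All 12 choroid plexus markers were detected and had negative differences in Model against Control, with a median of -1.23 and Sostdc1 called. All 12 were negative in Treatment against Control as well, with a median of -1.04. In Treatment against Model 10 were positive and 2 negative, with a median of 0.17. Their summed level was 482 to 1495 CPM in Treatment, 617 to 892 CPM in Model and 738 to 2415 CPM in Control libraries. With their score as a covariate mt-Nd5 differed by -0.35 ± 0.07 in Model against Control and was not called (edgeR, adjusted p = 0.0772). Without the score it differed by -0.30 ± 0.05. The median of the 13 mRNAs was -0.24 with the score and -0.16 without it. Over all genes tested 3 were called in that comparison with the score and 147 without it. In Treatment against Model the mt-Nd5 call held with the score, at 0.25 ± 0.05 (edgeR, adjusted p = 0.0264). The 10 neuron markers summed to 10761 to 11506 CPM in Treatment, 11076 to 12102 CPM in Model and 10036 to 10876 CPM in Control libraries. All 10 were positive in Model against Control (median 0.11) and none was called. The 10 endothelial markers were all positive in Treatment against Model (median 0.32), with 2 called, 1 (Itm2a) was called lower in Model against Control, and they summed to 249 to 291 CPM in Treatment, 211 to 226 CPM in Model and 207 to 236 CPM in Control libraries. The 10 hippocampus markers, all detected, had 3 called lower in Treatment against Model and 1 called higher in Model against Control, and summed to 1572 to 1644 CPM in Treatment, 1879 to 2163 CPM in Model and 1581 to 1890.2 CPM in Control libraries. Of the 10 oligodendrocyte markers 9 were negative in Model against Control, 1 of them called, with a sum of 6645 to 8113 CPM in Treatment, 6789 to 8177 CPM in Model and 7084 to 8373 CPM in Control libraries. Of the 10 astrocyte markers 1 was called higher in Treatment against Model, with a sum of 5496 to 6466 CPM in Treatment, 5756 to 6219.7 CPM in Model and 5936 to 6417 CPM in Control libraries. All 5 erythrocyte markers tested were negative in Model against Control, 1 of them called, with a sum of 192 to 253 CPM in Treatment, 148 to 245 CPM in Model and 223 to 384 CPM in Control libraries. The part of all these lists other than the choroid plexus one in the mitochondrial differences was not tested.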

How the data were processed

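Hippocampal poly(A) RNA was measured in 12 paired-end libraries, 4 per group, grouped by the sample labels. The submitters' processing notes list STAR 2.7.10a, Salmon 1.10.1, cutadapt 3.4, Trim Galore 0.6.7 and FastQC 0.12.1, and the build GRCm39 (mm39); their roles, the annotation release and the handling of strand and of reads that match several loci are not given in the sources used here. The authors deposited estimated counts, left unscaled (28.8% of nonzero values are not whole within 1e-06). Beside them stand deposited FPKM, scaled for effective gene length and library total as the values show.

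Counts were rounded. In R 4.3.3 with edgeR 4.0.16, filterByExpr kept 18600 genes, TMM scaled the libraries, and all 12 libraries entered 1 quasi-likelihood fit of the group means. The SE is the log2 fold change over the root of its F statistic. Depth was 17083260 to 27479083 counts per library, and the biological coefficient of variation 10.7%. Alternatives used RLE scaling, scaling without mitochondrial genes or by totals, DESeq2 1.42.0, limma 3.58.1 (voom, or log2 of FPKM plus 0.1 or 1, for genes reaching 0.5 FPKM in 4 libraries or unfiltered), other filters (none, or 1 CPM in 8 libraries), the 8 libraries compared, a replicate block, a choroid plexus score, fragment length, counts summed with copies, and leaving out libraries. Nuclear copies were found with BLASTN 2.17.0 among GENCODE vM21 transcripts (GRCm38). The edgeR model was also run on counts simulated from the mean levels and fitted spreads of these data. Such counts hold no reads shared between loci and no effect of fragment length, so they cannot check for either.

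The members and the gene lists were chosen with earlier results of these data known. All 37 mitochondrial genes are members. Every library's value is given for the mRNAs described in full and for both rRNAs, and the 4 tRNAs of highest count and any other with a count are named. From the nuclear lists those that passed are named, with Tfam, Polrmt, Lrpprc, Slirp and Ppargc1a. Gabpa, Fastk, Tefm, Atp5f1e, Cox6c and Tufm, called by DESeq2 or limma-voom and not by edgeR, and Sostdc1 and Itm2a were named after their values were seen. Same-numbered replicates are not said to be paired.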

Additional observations from a re-analysis of the deposited data

Results flagged for a closer look

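Of 81 groups of 4 libraries examined, 4 had a library far from the other 3 by Dixon's criterion (95%) on the gap over the range; chance alone gives about 1 in 20. In Control replicate 3 mt-Co2 was at 2040 CPM, with the other Control libraries at 2307 to 2356 CPM. In Model replicate 3 mt-Rnr1 was at 2045 CPM, with the other Model libraries at 2212 to 2241 CPM. In Model replicate 4 mt-Rnr2 was at 5028 CPM, with the other Model libraries at 4346 to 4434 CPM. In the same library the copy Gm28439 held 6.025% of its sum with mt-Nd4, with the other Model libraries at 1.193% to 1.836%.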

How the results depend on the processing

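The mRNA share kept its direction in each comparison under all alternatives run. Model against Control stood at -11.5%, at -6.995% by summed FPKM (6.22% in Treatment against Model, where the groups then overlapped, and -1.21% in Treatment against Control, beside -3.33%), and between -12.6% and -10.7% with single libraries left out; Treatment against Model then ranged from 6.63% to 11.2% and Treatment against Control from -5.59% to -1.59%. The count of mRNAs called lower in Model against Control (1, mt-Nd5) was 2 by total counts, 3 in DESeq2, 3 in the 8 libraries compared and 3 without Treatment replicates 2 and 3, adding mt-Co1, mt-Nd6 or both. It was 2 with no filter, where mt-Nd3 was also called higher (1), and 0 with the choroid plexus score and in FPKM with either pseudocount and without a filter. It ranged from 0 to 1 with single libraries left out. The count called higher in Treatment against Model (1, mt-Nd5) was 2 in DESeq2 (with mt-Nd4) and 2 with fragment length as covariate (with mt-Atp8). It was 0 with no filter (where mt-Nd3 was called lower, 1), in the 8 libraries and in FPKM with each setting, and 0 to 1 with single libraries left out. In Treatment against Control it was 1 with fragment length (mt-Atp8). The cause was not tested.

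Replicate numbers did not pair the libraries: same-numbered deviations correlated at -0.0404 to 0.111, and not every library matched its own number best. With the replicate block 2 mRNAs were called higher in Treatment against Model, mt-Nd5 (0.25, adjusted p = 0.0192 in edgeR) and mt-Nd4 (0.20, adjusted p = 0.0495), and mt-Nd5 stayed called in Model against Control.

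Sign changes occurred 39 times among the mitochondrial genes' fold changes given above and 27 times among 9 others not given there (of mt-Atp6, mt-Atp8, mt-Cytb, mt-Nd1, mt-Nd3, mt-Nd4l, mt-Nd6 and mt-Rnr1), and none of them was called with all libraries. In Model against Control mt-Nd2 became -0.020 by total counts, -0.048 with the choroid plexus score, -0.00011 in FPKM with each setting and -0.0036 with fragment length, and mt-Nd3 -0.10 with its copy. In Treatment against Model, FPKM with each setting gave 0.024 for mt-Co2, 0.038 for mt-Co3 and -0.13 for mt-Atp8. Fragment length gave 0.022 for mt-Co3 and 0.00067 for mt-Rnr1, and summing with copies gave 0.059 for mt-Co2 and -0.33 for mt-Nd4l. Without Treatment replicates 2 and 3 together mt-Co2 was 0.0099, mt-Co3 0.0022 and mt-Rnr2 0.00093. In Treatment against Control mt-Atp8 was 0.57 and mt-Nd5 0.015 with fragment length, and 0.32 and 0.0069 without Treatment replicates 2 and 3. With single libraries left out mt-Nd2 ranged from -0.031 to 0.031 in Model against Control. In Treatment against Model the range was -0.32 to 0.27 for mt-Atp8, -0.072 to 0.053 for mt-Co3, -0.10 to 0.0011 for mt-Rnr1 and -0.069 to 0.020 for mt-Rnr2. In Treatment against Control it was -0.45 to 0.090 for mt-Atp8.

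Over all genes the calls (147 in Model against Control, 350 in Treatment against Model, 19 in Treatment against Control) ranged from 3 to 783, 0 to 1090 and 0 to 748 over the alternatives. DESeq2 called 658, 1088 and 430, the fit with no filter 783, 1090 and 748, the 8 libraries compared 452 and 137 in the first pair of comparisons, the replicate block 228 and 431 (118 in Treatment against Control), the choroid plexus score 3 and 370, fragment length 101 and 190, and FPKM in limma 4 to 5 and 21 to 114. Without Treatment replicates 2 and 3 these were 284 and 132, and with limma-voom 88 and 318. With single libraries left out they ranged from 8 to 273 and from 0 to 459, and 0 were called in Treatment against Model without Model replicate 2 or 3, where 2631 and 2812 genes had an unadjusted p under 0.05 in edgeR. The values of mt-Atp6, mt-Co2, mt-Co3, mt-Nd4l and mt-Nd3 depend on how reads were divided between near-identical sequences, and the part of fragment length in the short mRNAs was not tested apart from the covariate.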
